A study of Mus musculus with 12 samples.

Results

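The signals of 10 genes of axon guidance and neural adhesion were followed in mouse embryonic fibroblasts exposed to cisplatin. They encode the secreted guidance cues Slit2 and Slit3, the Slit receptor Robo1, the semaphorins Sema3a, Sema3c and Sema5a, the semaphorin co-receptors Nrp1 and Nrp2 (neuropilins), the adhesion molecule Ncam1 and the brain lipid carrier Fabp7. All 10 were found on the array by the platform annotation, on 21 of its 22690 probe sets, each of which maps to 1 of these symbols alone. A probe set is a group of short probes for the same transcript, and several may report on 1 gene. The group was chosen by the signals of Slit2 and Ncam1, which had been seen to be much lower after cisplatin on these same arrays, and the lower Fabp7 signal of untreated Rb null cells was known as well. The cisplatin differences of its members are therefore given as a description, with no test, while differences between genotypes were tested. The genotype comparison after cisplatin and the difference between the cisplatin responses share the cisplatin arrays with that choice.

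The cells were fibroblasts (MEFs, mouse embryonic fibroblasts) in primary culture, taken from embryos at day 13.5 and grown to passage 2. Their 4 groups were Rb null MEFs with cisplatin, wildtype MEFs with cisplatin, untreated Rb null MEFs and untreated wildtype MEFs. Cisplatin, a platinum compound that crosslinks DNA, was given at 16 µM for 24 h, and the untreated cells received none. Rb null (Rb-/-) cells lack the retinoblastoma protein, which holds back E2F transcription factors. The design text speaks of 4 RNA samples, each hybridized to 3 arrays, so n = 3 hybridizations per group, and the p-values measure only the spread between hybridizations, which may be technical. The level of a transcript in such bulk RNA also cannot tell fewer cells of a type from less RNA per cell.

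Axon guidance cues are secreted or membrane-bound proteins that attract or repel growing axons. Slits bind Robo receptors, class 3 semaphorins bind neuropilins, which signal together with plexins, and neuropilins also bind members of the vascular endothelial growth factor (VEGF) family. Mesenchymal cells make many of these cues during development, when they shape nerve tracts and vessels. Ncam1 is an immunoglobulin-type adhesion molecule that can carry polysialic acid, and Fabp7 binds fatty acids and is best known from radial glia, the progenitor cells of the developing brain.

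The promoters of 3 members are shown because these genes moved in different ways: Slit2 differed most between genotypes after cisplatin, Nrp1 was the brightest after cisplatin and differed between genotypes mainly after cisplatin, and Fabp7 differed between genotypes without cisplatin. Each window covers 250 bases before to 50 bases after the gene's start in RefSeq (GRCm38.p6), which gave a window for 9 of the 10 members, and each is printed 5′ to 3′. Capitals mark TATAAA, found in some core promoters, GGGCGG (a GC box) and TTCCCGC (an E2F-type core). These and a further E2F-type core, TTGGCGC, were searched on both strands, where GGGCGG and TTCCCGC can overlap on opposite strands.
Slit2, chr5:47982905-47983204, plus strand: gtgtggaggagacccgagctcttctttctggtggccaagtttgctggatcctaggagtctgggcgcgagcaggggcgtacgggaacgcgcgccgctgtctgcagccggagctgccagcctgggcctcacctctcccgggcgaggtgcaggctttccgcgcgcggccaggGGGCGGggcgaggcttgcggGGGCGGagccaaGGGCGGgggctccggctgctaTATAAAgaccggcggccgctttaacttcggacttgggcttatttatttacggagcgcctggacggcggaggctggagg
Nrp1, chr8:128358823-128359122, plus strand: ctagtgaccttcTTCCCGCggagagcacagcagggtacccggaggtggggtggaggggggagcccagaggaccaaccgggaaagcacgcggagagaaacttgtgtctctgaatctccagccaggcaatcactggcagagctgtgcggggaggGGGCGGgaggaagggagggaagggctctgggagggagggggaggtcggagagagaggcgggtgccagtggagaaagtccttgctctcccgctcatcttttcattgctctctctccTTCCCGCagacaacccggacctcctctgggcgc
Fabp7, chr10:57784673-57784972, plus strand: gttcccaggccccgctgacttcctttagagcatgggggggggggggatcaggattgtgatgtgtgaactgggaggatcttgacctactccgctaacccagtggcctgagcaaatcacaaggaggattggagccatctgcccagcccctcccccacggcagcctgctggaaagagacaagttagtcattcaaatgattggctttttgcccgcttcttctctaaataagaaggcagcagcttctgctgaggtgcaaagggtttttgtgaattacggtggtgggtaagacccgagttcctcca
The Slit2 window held 30 CpG dinucleotides, 1 TATAAA and 3 GGGCGG, the Nrp1 window 14 CpG, 1 GGGCGG and 2 TTCCCGC, and the Fabp7 window 6 CpG and none of the 4 motifs. The median over 32851 windows of the table was 7 CpG. Among the 9 members' windows, 6 held GGGCGG, as did 35.7% of all windows, 1 held TATAAA (13.6% of all), 1 held TTCCCGC (4.6%) and 0 held TTGGCGC (2.45%). A match of letters is no sign that a factor binds there.

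The values are MAS5 signals, in arbitrary units that had been scaled to the same mean on every array, with array medians of 161 to 190.0. Differences are given as log2(signal + 10.4) ± standard error from limma, where 10.4 is the 10th percentile of all values and makes differences of weak genes look smaller. Of the 21 probe sets, 13 were bright enough to be tested, which covered 7 genes. Slit3, Robo1 and Sema5a had no tested probe set, and their differences come from a fit without the filter on low values, adjusted over all its probe sets. Calls required a difference of at least 1.5-fold and an adjusted p below 0.05 (Benjamini-Hochberg, over all 13575 tested probe sets), and counts use 1 probe set per gene, the one with the highest mean log2 signal.

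Rb1 bore out the genotype labels, with means of 89.6 and 94.0 in Rb null MEFs with and without cisplatin, against 383 and 459.7 in wildtype MEFs. The untreated wildtype arrays stood apart in sex-linked transcripts. Xist, expressed from the inactive X chromosome, averaged 2379 to 3443 elsewhere and 132 on these arrays. Eif2s3y, from the Y chromosome, averaged 1.27 to 6.63 elsewhere and 478 on these arrays. By these transcripts the untreated wildtype RNA came from male cells and the cisplatin wildtype RNA from female cells, so not from the same embryo. A comparison that uses untreated wildtype MEFs therefore sets arrays against each other that also differ in these transcripts. This holds for each cisplatin difference in wildtype MEFs, where cisplatin and culture cannot be told apart, for the untreated genotype comparison and for the difference between the responses. The comparison of genotypes after cisplatin and that of cisplatin within Rb null MEFs do not use them. By the design text the arrays of a group share an RNA sample. Culture therefore cannot be told apart from genotype or cisplatin in these comparisons either. All 10 fibroblast markers passed the filter on low values, with the cytoskeletal Vim at 15700 to 16590 as group means. Of these, 7 were called lower in Rb null than in wildtype MEFs after cisplatin, among them the proteoglycan Lum (93.2 against 960.5), the receptor Pdgfrb (130.4 against 492) and the collagen Col3a1 (1622 against 5103), and 0 were called higher. Without cisplatin the means in Rb null and wildtype MEFs were 155.5 and 102 for Lum, 933 and 956 for Pdgfrb, and 5199 and 6139 for Col3a1. With cisplatin, 3 fibroblast markers were called higher and 4 lower within wildtype MEFs, and 0 higher and 5 lower within Rb null MEFs. The difference between the cisplatin responses was called negative for 7 and positive for 0. Their summed signal was 36260 to 37310 in cisplatin Rb null and 47860 to 50000 in cisplatin wildtype MEFs, against 57530 to 59510 and 60040 to 63930 without cisplatin. The ratio of 3′ to 5′ probe sets of Gapdh, a measure of RNA integrity, averaged 0.846 and 0.817 in cisplatin Rb null and wildtype MEFs, against 0.767 and 0.790 without cisplatin.

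Slit2 was among the members that differed most. Its signal was 58.9, 66.0 and 73.0 on the cisplatin Rb null arrays, against 2121, 1739 and 1887 on the untreated Rb null arrays. In wildtype MEFs it was 339.5, 288 and 314 with cisplatin, against 2340.3, 2065 and 2096 without. In both genotypes the cisplatin arrays lay far below the untreated ones, by 25.2-fold in Rb null (log2 -4.66 ± 0.10) and 6.72-fold in wildtype MEFs (log2 -2.75 ± 0.10). Without cisplatin the genotypes overlapped and did not pass the test (log2 -0.18 ± 0.10, adjusted p = 0.196). After cisplatin every Rb null array was below every wildtype array, and Slit2 was 4.25-fold lower (log2 -2.09 ± 0.10, limma adjusted p = 2.02e-09). The cisplatin difference itself was larger in Rb null than in wildtype MEFs by log2 -1.91 ± 0.14 (limma adjusted p = 2.45e-07). The group was chosen by the Slit2 fall on these same cisplatin arrays, so these tests are not independent of that choice. A second Slit2 probe set, too weak to be tested, was also lower after cisplatin, at a mean of 13.5 against 120.5 in Rb null and 18.9 against 93.5 in wildtype MEFs, and its genotype groups overlapped after cisplatin.

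**Figure D1:**
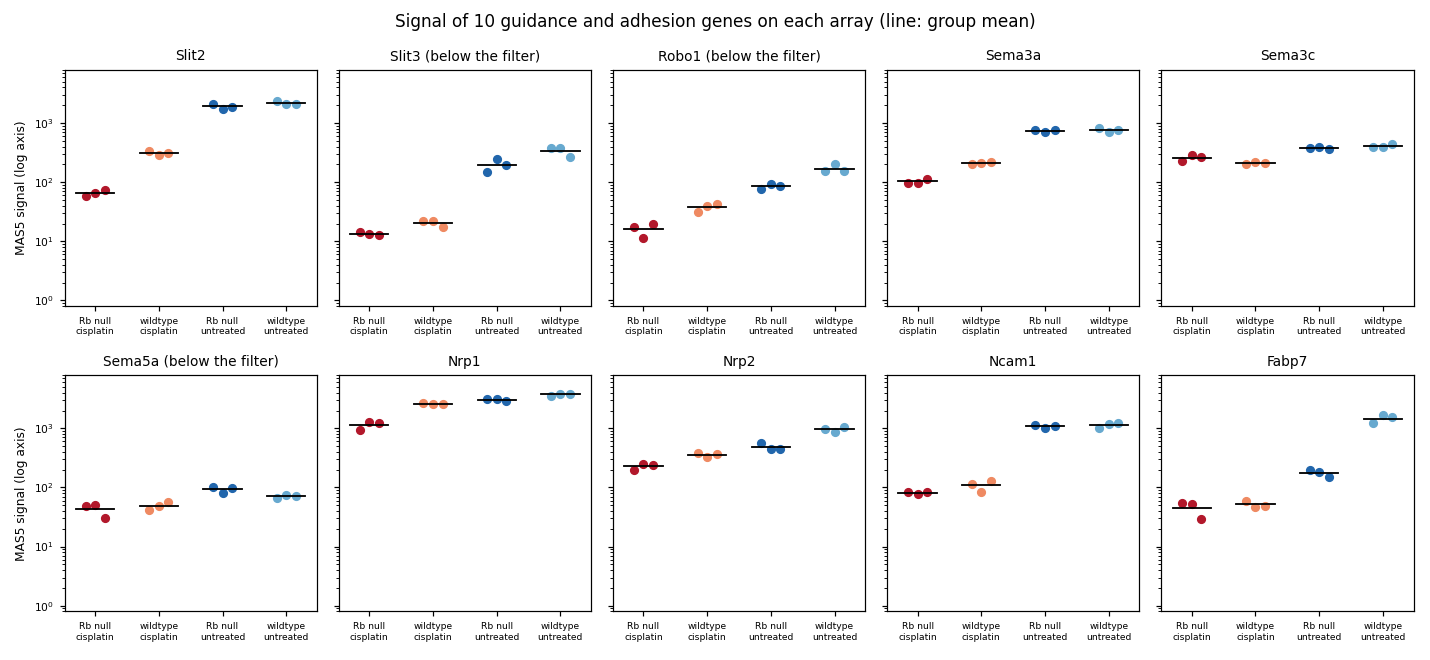
MAS5 signal on a log axis for the 10 genes, 1 probe set each, with 1 point per array, 3 arrays per group and a line at the group mean. Slit2 averages 66.0 and 314 with cisplatin against 1916 and 2167 without, and Fabp7 is high on the untreated wildtype arrays alone.

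Slit3, a second Slit ligand, was weaker. Its signal was 14.4, 13.1 and 12.9 with cisplatin against 152, 247 and 197 without in Rb null MEFs. In wildtype MEFs it was 21.7, 21.9 and 17.6 with cisplatin, against 372, 375 and 265 without. These cisplatin values lie near the 10th percentile of all values, so the sizes (log2 -3.10 ± 0.22 in Rb null and -3.48 ± 0.22 in wildtype) are compressed. Untreated Rb null arrays were all below untreated wildtype arrays (log2 -0.75 ± 0.22, limma adjusted p = 0.0263 in the fit without the filter).

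Robo1, the receptor of both Slits, had a lower signal in Rb null MEFs under both conditions, on a probe set below the filter on low values. It averaged 16.1 ± 4.16 in Rb null against 37.5 ± 6.00 in wildtype MEFs after cisplatin (log2 -0.86 ± 0.21, limma adjusted p = 0.0062 in the fit without the filter). Without cisplatin it averaged 86.3 ± 8.78 in Rb null and 169 ± 26.6 in wildtype MEFs (SD, n = 3 each; log2 -0.89 ± 0.21, limma adjusted p = 0.00839). No array of 1 genotype overlapped with the other in either comparison. Cisplatin against untreated gave log2 -1.88 ± 0.21 in Rb null and -1.90 ± 0.21 in wildtype MEFs, and their difference of 0.02 ± 0.30 did not pass the test (limma adjusted p = 0.968). The cisplatin Rb null signals of 17.4, 11.4 and 19.4 lie near 10.4, the value added before taking logs. The sizes of the differences that use these signals are therefore compressed. For the same reason, the small difference between the responses does not show that they were equal.

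Among the semaphorins, Sema3a, a repellent of sensory axons, resembled Slit2. On the probe set used for counts it had 98.5, 97.0 and 113 in cisplatin Rb null MEFs, against 777, 718 and 749.6 without cisplatin. In wildtype MEFs it had 201.5, 213 and 219.8 with cisplatin, against 835, 701 and 750.3 without. Untreated genotypes overlapped (log2 -0.02 ± 0.10, adjusted p = 0.886), and after cisplatin Sema3a was 1.96-fold lower in Rb null MEFs, with no overlap (log2 -0.97 ± 0.10, limma adjusted p = 1.66e-06). Cisplatin against untreated gave log2 -2.75 ± 0.10 in Rb null and -1.80 ± 0.10 in wildtype MEFs, and these differed by -0.95 ± 0.14 (limma adjusted p = 9.61e-05). The other tested probe set gave a larger genotype difference after cisplatin, of log2 -1.44 ± 0.11 (limma adjusted p = 1.55e-07). A weak one, not tested, averaged 4.33 and 4.6 with cisplatin in Rb null and wildtype MEFs, against 35.4 and 27.4 without.

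Sema3c, which also signals through neuropilins, differed least with cisplatin in Rb null MEFs. Its signal was 229, 289 and 265 in cisplatin Rb null MEFs, against 384, 399.6 and 369 without, and 203, 217 and 209 in cisplatin wildtype MEFs, against 397, 388 and 445 without. Cisplatin arrays lay below untreated ones in both genotypes, by log2 -0.54 ± 0.10 in Rb null and -0.93 ± 0.10 in wildtype MEFs. On the probe sets used for counts, it was the one tested member with a higher mean in Rb null MEFs after cisplatin (log2 0.30 ± 0.10, adjusted p = 0.0252), below the 1.5-fold minimum.

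Sema5a, a membrane-bound semaphorin, had 2 weak probe sets. The brighter had means of 43.4 and 48.8 with cisplatin in Rb null and wildtype MEFs, against 93.0 and 71.6 without. The other had 2.70 and 3.70 with cisplatin, against 65.2 and 28.2 without, and there untreated Rb null MEFs were higher than untreated wildtype MEFs with no overlap (log2 0.97 ± 0.20, limma adjusted p = 0.00305 in the fit without the filter). The brighter probe set had log2 0.33 ± 0.21 for the same comparison (adjusted p = 0.339), so the call rests on 1 of the 2.

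Nrp1, the receptor that binds Sema3a and VEGF, was the brightest member after cisplatin. It had 934, 1284 and 1215 in cisplatin Rb null MEFs, against 2635, 2530.2 and 2616 in cisplatin wildtype MEFs. Without cisplatin it had 3130.4, 3123 and 2899 in Rb null MEFs, against 3564, 3765 and 3878 in wildtype MEFs. Rb null arrays were below wildtype arrays in both conditions without overlap, but the gap was wider after cisplatin: 2.27-fold (log2 -1.19 ± 0.09, limma adjusted p = 1.84e-07), against log2 -0.29 ± 0.09 (adjusted p = 0.0268, below the 1.5-fold minimum) without. The cisplatin differences were log2 -1.42 ± 0.09 in Rb null and -0.52 ± 0.09 in wildtype MEFs, and they differed by -0.89 ± 0.13 (limma adjusted p = 0.000123). Its other 2 probe sets gave -0.77 ± 0.10 and -1.24 ± 0.12 for that difference, both called. Of 8 markers of endothelial cells, which also carry Nrp1, 7 were too weak to be tested, with Pecam1 at group means of 26.3 to 38.1 and Tie1 at 1.67 to 2.37. The tested one, the junction protein Esam, averaged 270.4 and 142 with cisplatin in Rb null and wildtype MEFs, against 105 and 75.2 without. It was higher in Rb null MEFs after cisplatin (log2 0.88, limma adjusted p = 0.00587). The sum of the markers was 554 to 647 in cisplatin Rb null and 423 to 477 in cisplatin wildtype MEFs. Without cisplatin it was 261 to 569 and 327.5 to 585. The part of endothelial cells in the Nrp1 values was not tested.

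Nrp2, the receptor of other class 3 semaphorins, was lower in Rb null MEFs with and without cisplatin. It had 199, 250.3 and 236 in cisplatin Rb null MEFs, against 385, 333 and 363 in cisplatin wildtype MEFs, and 573, 445 and 439.5 in untreated Rb null MEFs, against 990.1, 872 and 1071 in untreated wildtype MEFs. The groups did not overlap in either pair. The difference was log2 -0.64 ± 0.12 after cisplatin (limma adjusted p = 0.000555) and -0.999 ± 0.12 without (limma adjusted p = 1.82e-05). The first of these is just past the 1.5-fold minimum and missed it with median centring (log2 -0.57), with quantile normalization (-0.54), with a larger pseudocount (-0.57) and without the cisplatin Rb null array labelled a (-0.55). Cisplatin against untreated gave log2 -1.05 ± 0.12 in Rb null and -1.41 ± 0.12 in wildtype MEFs, which did not differ past the threshold (adjusted p = 0.118).

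**Figure D2:**
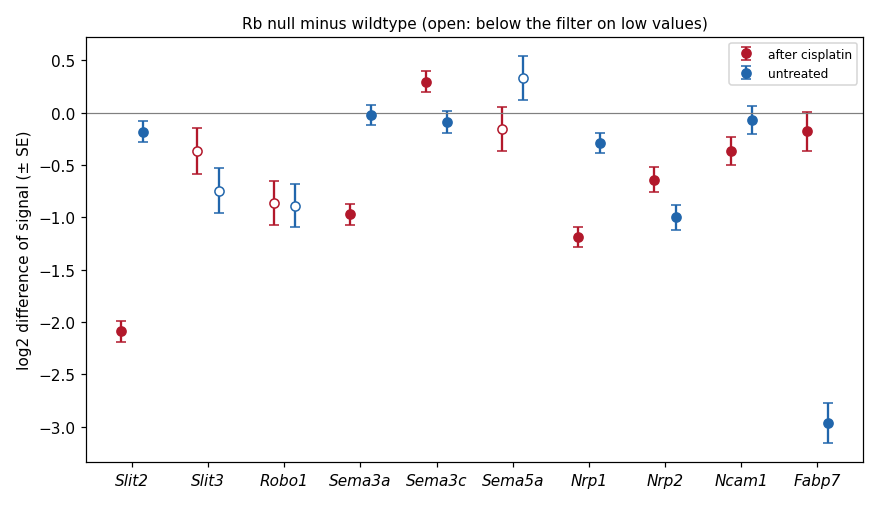
Difference of Rb null minus wildtype MEFs in log2(signal + 10.4), with standard error, for the 10 genes after cisplatin and untreated. Slit2 (-2.09), Sema3a (-0.97) and Nrp1 (-1.19) are lower after cisplatin, Fabp7 (-2.96) is lower without it, and open points are genes below the filter on low values.

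Ncam1 was read by 6 probe sets, of which 4 were tested. The brightest on untreated arrays, 1426864_a_at, had 11.8, 8.9 and 8.9 in cisplatin Rb null MEFs, against 2819, 2581 and 2933 without cisplatin. In wildtype MEFs it had 41.1, 25.2 and 32.5 with cisplatin, against 3597, 3814.5 and 3664 without. The cisplatin Rb null signals are at the level of the pseudocount and cannot be told from background, so no share or fold is drawn from them. The probe set 1426865_a_at, made from the same accession and used for counts, had 82.5, 76.2 and 85.1 against 1141, 1024 and 1087 in Rb null MEFs, and 116, 82.3 and 129 against 1013, 1194 and 1214 in wildtype MEFs. There the cisplatin mean was 7.50% of the untreated mean in Rb null and 9.57% in wildtype MEFs. All 4 tested probe sets were lower after cisplatin in both genotypes, by log2 -2.33 to -3.58 in Rb null and -2.30 to -4.02 in wildtype MEFs on the 3 other than 1426864_a_at. The 2 weak probe sets had group means of 7.17 to 40.1 and of 10.5 to 23.9.

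The Ncam1 probe sets did not give the same answer on genotype. After cisplatin, 1426864_a_at was lower in Rb null MEFs by log2 -1.08 ± 0.12 (limma adjusted p = 6.64e-06), a size that depends on the pseudocount because the Rb null signals cannot be told from background. The same comparison gave -0.36 ± 0.13 (adjusted p = 0.0355, below the 1.5-fold minimum) on 1426865_a_at and 0.18 ± 0.11 (adjusted p = 0.209) on 1450437_a_at. Without cisplatin, 1450437_a_at was the one called, lower in Rb null MEFs by -0.66 ± 0.11 (limma adjusted p = 0.000408), with 562, 648 and 647 against 988, 952 and 1015. The difference between the cisplatin responses was -0.67 ± 0.18 on 1426864_a_at (adjusted p = 0.00809) and 0.84 ± 0.16 on 1450437_a_at (adjusted p = 0.000963), opposite in sign and both called by limma, the first with the same limit on its size. Probe sets with the suffix _a_at can match several transcripts of a gene, and which Ncam1 transcript each one reads was not determined here. Ncam1 was also chosen by its fall with cisplatin on these same arrays, so these tests are not independent of that choice.

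**Figure D3:**
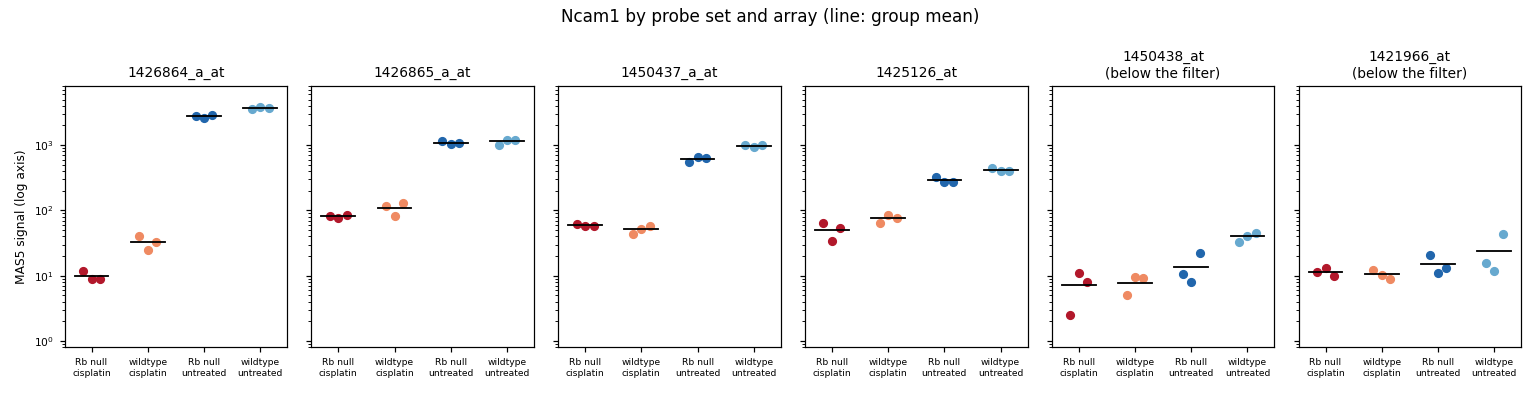
MAS5 signal on a log axis for the 6 Ncam1 probe sets, with 1 point per array and a line at the group mean. On the 4 tested probe sets every cisplatin array lies below every untreated array; the 2 at the right are below the filter on low values.

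Ncam1 is also carried by myoblasts, so muscle markers are given beside it. Their summed signal over 8 genes was 627 to 705 in cisplatin Rb null and 746 to 893 in cisplatin wildtype MEFs, against 2029 to 2121 and 3304 to 3373 without cisplatin. Most of the untreated sum was the skeletal actin Acta1 (1717 and 2784), which averaged 219.9 and 274.2 with cisplatin. The other tested markers, Des and Chrna1, were not called between cisplatin and untreated cells in either genotype. Des averaged 120.6 and 216.4 with cisplatin in Rb null and wildtype MEFs, against 88.2 and 156.7 without. Chrna1 averaged 126.8 and 153.8, against 89.0 and 171.7. The defining factors Myod1 (55.0 to 71.6), Myog (21.0 to 50.1) and Myf5 (2.90 to 7.03) were below the array median in every group. The part of myoblasts in the Ncam1 values was not tested.

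Fabp7 followed another pattern. It had 53.9, 52.7 and 29.6 in cisplatin Rb null MEFs, against 59.5, 46.5 and 48.8 in cisplatin wildtype MEFs, and these overlapped (log2 -0.18 ± 0.19, adjusted p = 0.46). Without cisplatin it had 197, 184 and 153 in Rb null MEFs, against 1210.1, 1649 and 1532 in wildtype MEFs. The untreated wildtype arrays alone were high, and Fabp7 was 7.80-fold lower in untreated Rb null MEFs (log2 -2.96 ± 0.19), a difference known when the gene was chosen and so given with no test. Cisplatin against untreated gave log2 -1.78 ± 0.19 in Rb null and -4.57 ± 0.19 in wildtype MEFs, and the responses differed by 2.79 ± 0.27. This value and the untreated difference both rest on the untreated wildtype arrays, which also stood apart in sex-linked transcripts, and the culture and the genotype cannot be told apart there.

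Neural markers were examined for the same arrays. The summed signal of 8 markers of neural progenitors and radial glia was 1712 to 2347 in cisplatin Rb null and 1255 to 1622 in cisplatin wildtype MEFs, against 2004 to 2534 in untreated Rb null and 2943 to 3082 in untreated wildtype MEFs. The intermediate filament Nes made up most of it (1086 to 2277 as group means), and 0 of the tested markers were called between untreated genotypes. Sox2, a factor of neural progenitors that was too weak to be tested, averaged 79.4 ± 10.6 in untreated Rb null and 215 ± 27.0 in untreated wildtype MEFs. The sum of 13 neuronal markers was 829 to 1030 in cisplatin Rb null and 818 to 895.5 in cisplatin wildtype MEFs, against 805 to 1084 and 1057 to 1162 without cisplatin. Of them 3 were tested. Stmn2 was at 198 in untreated Rb null against 305 in untreated wildtype MEFs, Gap43 at 161.9 against 240.0 and Tubb3 at 71.4 against 88.3. With cisplatin, Stmn2 was lower, at 65.9 in Rb null and 91.7 in wildtype MEFs. Gap43 was then at 264.3 and 215.5, and Tubb3 at 223 and 134, both higher than without cisplatin in Rb null MEFs. The defining markers Snap25 (1.53 to 6.20) and Rbfox3 (7.10 to 12.0) were near the bottom of the scale in every group. The sum of 6 markers of Schwann cells and neural crest was 379 to 428 in cisplatin Rb null and 322 to 463 in cisplatin wildtype MEFs, against 332 to 408 and 489.7 to 572 without, and Sox10 alone of them was tested (173 to 208). Their part in the Fabp7 difference was not tested.

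Counted over the 7 tested members, 4 were lower and 0 higher in Rb null than in wildtype MEFs after cisplatin (Slit2, Sema3a, Nrp1 and Nrp2), where 13.3% of 7945 genes were called lower, 9.67% higher and 23.0% in either direction. Long genes were called lower more often. The share was 40.09% among genes that span 100 to 300 kb, as Nrp1 and Nrp2 do. It was 23.85% among genes of 300 kb or more, as Slit2 and Sema3a are. Under median centring and under quantile normalization 3 members were called, without Nrp2, and 51.3% of all calls were higher under median centring in place of 42.0%. Of the 10 fibroblast markers 7 were called lower in the same comparison, and their part in the members' values was not tested. The median member difference was log2 -0.64, against -0.05 over all genes. Without cisplatin 2 members were lower (Nrp2 and Fabp7, of which Fabp7 was known beforehand) and 0 higher, beside 5.08% and 8.07% of genes (13.2% either way), with a median of -0.18 against -0.01. The difference between responses was called for 4 members, 3 negative (Slit2, Sema3a and Nrp1) and 1 positive (Fabp7, its untreated difference known beforehand). Among all genes 15.0% were called negative and 8.7% positive (23.7% either way). Slit2 is in this count and in that after cisplatin, though the group was chosen by its fall with cisplatin.

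The count for cisplatin against untreated restates the choice of members and is no test. In Rb null MEFs 6 of 7 were past the same thresholds as lower (20.3% of genes, and 36.9% in either direction), the exception being Sema3c. In wildtype MEFs 6 of 7 were past them as lower (12.7% of genes, and 27.5% in either direction), the exception being Nrp1. On another tested probe set Nrp1 was past them in wildtype MEFs (log2 -0.64 ± 0.07). Counting the probe set with the largest change gave 7 of 7 there. Of genes that span 100 to 300 kb, 67.93% were past the thresholds as lower in Rb null and 45.63% in wildtype MEFs. For genes of 300 kb or more the shares were 74.31% and 73.39%. The tested members other than Fabp7 have spans in these classes. For genes under 10 kb, as Fabp7 is, the shares were 8.56% and 5.77%. The member medians were log2 -1.78 and -1.80, against -0.02 and 0.06 over all genes. Under median centring of the arrays the median of all genes moved to 0.13 in Rb null MEFs, and 58.0% of all calls there were higher in place of 44.9%; for the difference between responses 51.3% were higher in place of 36.7%. For both comparisons the number of members past the thresholds was the same under that scaling.

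**Figure D4:**
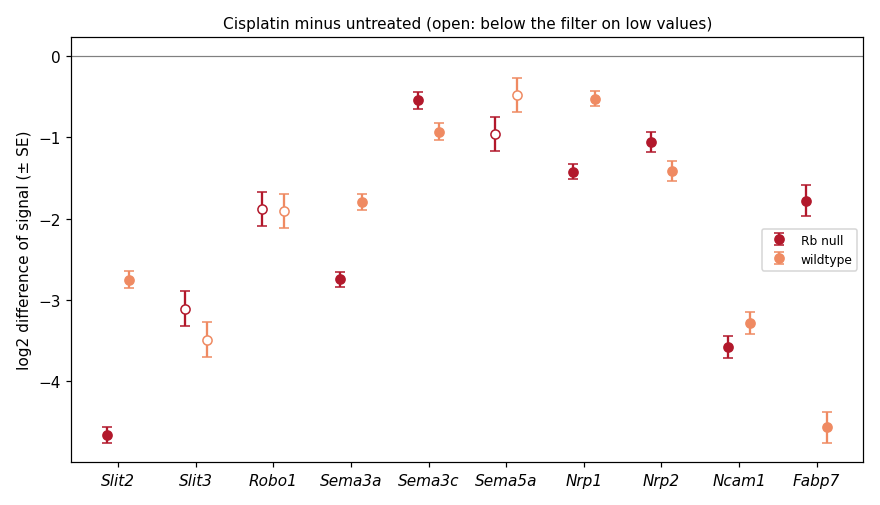
Difference of cisplatin minus untreated in log2(signal + 10.4), with standard error, for the 10 genes in Rb null and wildtype MEFs. All 20 values are below 0; Slit2 is lower in Rb null (-4.66) than in wildtype MEFs (-2.75), and Fabp7 lower in wildtype (-4.57) than in Rb null MEFs (-1.78).

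Other genes of the same pathways were taken from a list of 121, of which 102 had a probe set and 52 were tested. Against untreated cells, 22 of the 52 fell and 6 rose with cisplatin in Rb null MEFs, beside 20.3% and 16.6% of all genes, and 22 fell and 6 rose in wildtype MEFs, beside 12.7% and 14.8%. The list medians were log2 -0.25 and -0.34. Between genotypes after cisplatin, 12 were lower and 4 higher in Rb null MEFs, beside 13.3% and 9.67% of all genes, and without cisplatin 11 were lower and 4 higher, beside 5.08% and 8.07%. These lists were written with earlier results of the same arrays known, and each change given for wildtype MEFs with cisplatin rests on the untreated wildtype arrays that stood apart.

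Netrin receptors and Slit signalling genes were among those that fell. Of 4 tested netrin receptor genes 3 fell in both genotypes, where 20.3% of all genes fell in Rb null and 12.7% in wildtype MEFs. Neo1, a receptor of netrins and repulsive guidance molecules, averaged 24.6 ± 2.14 with cisplatin against 333 ± 58.3 without in Rb null MEFs (SD, n = 3 each; limma log2 -3.29 ± 0.22, adjusted p = 8.93e-09) and 45.7 ± 17.5 against 389 ± 21.2 in wildtype MEFs (limma log2 -2.88 ± 0.22, adjusted p = 5.54e-08). The repulsive netrin receptors Unc5c and Unc5b fell by 4.57-fold and 4.03-fold in Rb null MEFs, and by 4.03-fold and 2.27-fold in wildtype MEFs. Unc5b was also lower in Rb null than in wildtype MEFs after cisplatin (limma log2 -1.02 ± 0.13, adjusted p = 1.71e-05). Srgap2 and Srgap3, GTPase-activating proteins that act below Robo, both fell in both genotypes, by 3.30-fold and 4.59-fold in Rb null and 2.31-fold and 2.21-fold in wildtype MEFs.

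The other semaphorins did not move as one. Of 8 tested, Sema4b rose in both genotypes, by 4.47-fold in Rb null and 2.11-fold in wildtype MEFs, and Sema7a fell in both, by 1.77-fold and 2.19-fold. Sema3f rose in wildtype MEFs (limma log2 1.93 ± 0.32, adjusted p = 0.000124), with 230.1 ± 8.86 with cisplatin against 61.4 ± 41.4 without. Sema4f was lower in Rb null MEFs with cisplatin (110 ± 36.2 against 303 ± 10.7) and without (94.3 ± 29.0 against 246 ± 22.0; SD, n = 3 each). Of the plexins, the signalling partners of neuropilins, 4 were tested. Plxnd1 fell in both genotypes, and Plxna3 and Plxnb2 were not called in either. Plxna1 fell in Rb null MEFs (log2 -0.89 ± 0.11) and just missed the 1.5-fold minimum in wildtype MEFs (-0.58 ± 0.11). Its responses did not differ past the threshold (log2 -0.30 ± 0.16, limma adjusted p = 0.144).

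Adhesion genes fell where they were called. Of 6 tested, 4 fell with cisplatin in each genotype and 0 rose. Among all genes 20.3% fell and 16.6% rose in Rb null MEFs, and 12.7% fell and 14.8% rose in wildtype MEFs. Cdh2, which encodes N-cadherin, averaged 178 ± 8.56 in cisplatin Rb null against 655 ± 22.7 in cisplatin wildtype MEFs (limma log2 -1.82 ± 0.09, adjusted p = 1.5e-09), and 1550 ± 107 in untreated Rb null against 2293 ± 228 in untreated wildtype MEFs. Alcam, an immunoglobulin-type adhesion molecule like Ncam1, was lower in Rb null MEFs by 2.79-fold after cisplatin and 1.63-fold without. St8sia2, the enzyme that adds polysialic acid to Ncam1, was likewise highest on the untreated wildtype arrays: 79.7 and 84.1 after cisplatin in Rb null and wildtype MEFs, against 218 and 769.7 without. It was lower in untreated Rb null MEFs by log2 -1.75 ± 0.15 (limma adjusted p = 6.3e-07). Of the relatives of Fabp7, Fabp3 rose with cisplatin in Rb null MEFs (2.40-fold) and Fabp5 fell in wildtype MEFs (2.30-fold).

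Ephrins, Eph receptors and VEGF genes were mixed. Of 5 tested ephrins, Efnb3 alone rose, in Rb null MEFs (1.65-fold), and 0 fell in either genotype. Of 4 tested Eph receptors, Ephb3 and Epha2 rose and Epha4 fell in both genotypes. Ephb4 fell in Rb null MEFs alone (limma log2 -0.81 ± 0.11, adjusted p = 1.79e-05). After cisplatin it was lower in Rb null than in wildtype MEFs (limma log2 -0.64 ± 0.11, adjusted p = 0.000271). Among the VEGF genes that pair with neuropilins, the receptor Flt1 fell in both genotypes, by 3.30-fold in Rb null and 4.58-fold in wildtype MEFs, while the ligand Vegfd rose 6.82-fold in wildtype MEFs and was lower in Rb null MEFs after cisplatin (limma log2 -1.01 ± 0.24, adjusted p = 0.00271). Of the intracellular effectors, Dock1, Farp1 and Fyn fell most in Rb null MEFs, with Dock1 at 57.2 ± 5.29 with cisplatin against 1016 ± 32.2 without.

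Of the 10 members, 9 are long genes. Span was not used to choose them. The choice by a fall with cisplatin is not independent of span, since such falls went with span across tested genes. By RefSeq (GRCm38.p6), the genomic span was 1020.0 kb for Robo1, 587 kb for Slit3, 479 kb for Sema3a, 452 kb for Sema5a, 326 kb for Slit2, 297 kb for Ncam1, 155 kb for Sema3c, 147 kb for Nrp1 and 115 kb for Nrp2, and 3.53 kb for Fabp7. Nrp2, the shortest of the 9, was longer than 92.2% of tested genes with a known span. Across tested genes, longer spans went with lower signals after cisplatin. In Rb null MEFs the median log2 difference was 0.19 for 2080 genes under 10 kb, 0.12 for 2804 genes of 10 to 30 kb, -0.22 for 2258 genes of 30 to 100 kb, -0.95 for 686 genes of 100 to 300 kb and -1.63 for 109 genes of 300 kb or more. In wildtype MEFs the medians were 0.16, 0.14, -0.03, -0.51 and -1.31. Spearman's rho between span and difference across 7937 genes was -0.41 in Rb null and -0.31 in wildtype MEFs, a description in which all genes share the same arrays.

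Set against these classes, Slit2 and Sema3a lay below the lower quartile of genes of 300 kb or more in Rb null MEFs (-2.60), and Ncam1 below that of genes of 100 to 300 kb in both genotypes (-1.63 and -1.05). In wildtype MEFs Slit2 (-2.75) was below the lower quartile of its class (-2.41), and Sema3a (-1.80) lay between that quartile and the median. Sema3c was above the median of its class in Rb null MEFs (-0.54) and below it in wildtype MEFs (-0.93). Nrp1 was below it in Rb null MEFs (-1.42) and close to it in wildtype MEFs (-0.52). Nrp2 was below it in Rb null MEFs (-1.05) and below the lower quartile in wildtype MEFs (-1.41). Fabp7, a short gene, was far below the lower quartile of its class, which was -0.17 in Rb null and -0.08 in wildtype MEFs. The genotype difference after cisplatin varied with span, with a median of log2 -0.45 for genes of 100 to 300 kb and -0.08 for those of 300 kb or more, against 0.03 for genes under 10 kb. Without cisplatin the class medians lay between -0.03 and 0.01. The part of span in the values of the members and of the other pathway genes was not tested.

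**Figure D5:**
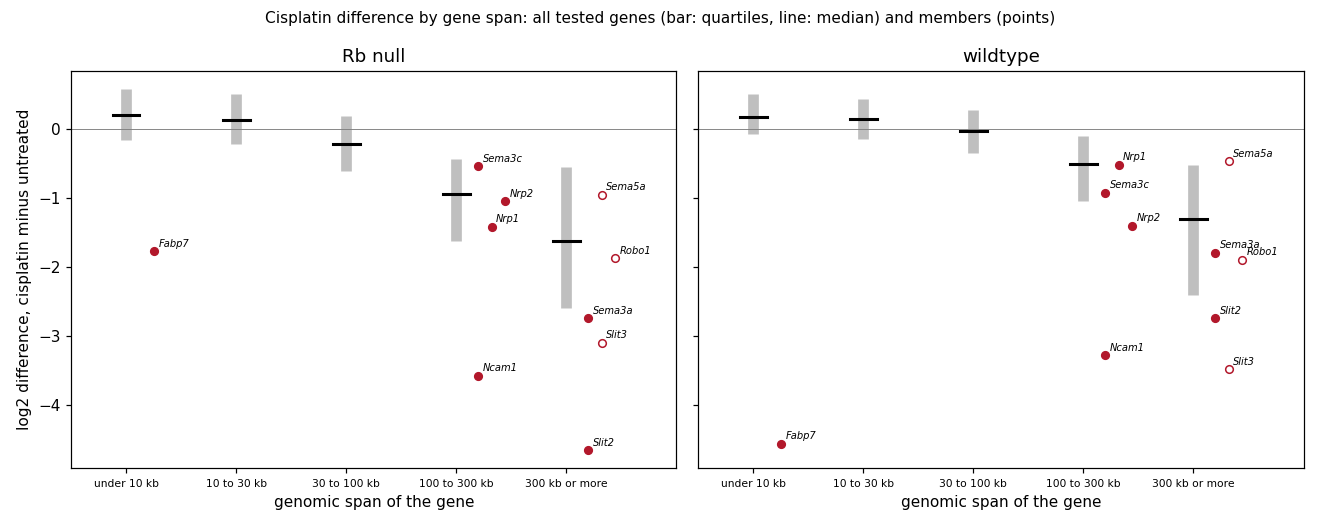
Difference of cisplatin minus untreated in log2(signal + 10.4), by class of genomic span, in Rb null and wildtype MEFs: bars are the quartiles and lines the medians of all tested genes, and points are the 10 members (open where below the filter). Class medians run from 0.19 to -1.63 in Rb null and from 0.16 to -1.31 in wildtype MEFs, and Fabp7 is the member in the shortest class.

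The genes most like 3 members across the 12 arrays were named by Pearson's r of log2 signal, as a description over 4 groups. For Slit2 they were Pdzrn3 (r = 0.997), Nxn (0.996) and Mrc2 (0.996). Pdzrn3 averaged 127 and 397 with cisplatin in Rb null and wildtype MEFs, against 1446 and 1867 without. For Ncam1 they were Wnk1 (0.997), Flna (0.997) and Utrn (0.996), and Utrn averaged 91.1 and 130.1 with cisplatin against 1274 and 1177 without. For Fabp7 they were Parm1 (0.987), Prrc1 (0.981) and Ankrd1 (0.981), of which Parm1 averaged 95.5 and 89.6 with cisplatin, against 259 and 1054 without. Among the members themselves Slit2 and Sema3a were most alike (r = 0.995), and Sema3c and Nrp1 least (0.562).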

How the data were processed

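RNA of 4 groups of MEFs was measured on 12 Affymetrix arrays, 3 per group. The deposited table holds an intensity (MAS5 signal) for each probe set, made with that tool per the submitters' processing notes; its version, scaling target and detection calls are not given in the sources used here. Of 22690 probe sets, 64 controls were left out. Signals were used as log2(signal + 10.4), and the 40% of probe sets with the lowest mean were not tested, which left 13575. Of all non-control probe sets, 20380 had 1 gene symbol, 691 several and 1555 none.

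A mean per group was fitted with limma 3.58.1 in R 4.3.3 (lmFit, eBayes with trend; 8 residual and 6.09 prior degrees of freedom), with two-sided tests adjusted by Benjamini-Hochberg. The members, gene lists and thresholds were chosen with earlier results of these data known. Every member was named; of each pathway list up to 3 called genes per direction and comparison could be named, and others are given as values. The fit was tested on simulated data. Alternatives changed the pseudocount, filter, normalization, variance trend, fold minimum, arrays in the fit and probe set. Probe sets ending in _x_at, _f_at, _r_at, _i_at or _g_at, which can cross-hybridize, stood for a gene only if nothing else did. The number of arrays limits the precision.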

Additional observations from a re-analysis of the deposited data

Results flagged for a closer look

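The cisplatin response differed between Rb null and wildtype MEFs, by limma's test of that difference (log2, Rb null minus wildtype response), for Slit2 (-1.91), Sema3a (-0.95), Nrp1 (-0.89) and Fabp7 (2.79, with its untreated difference known when it was chosen). The group was chosen by the cisplatin falls of Slit2 and Ncam1, so the values of these genes are not independent of that choice. For Ncam1, 2 probe sets also passed, in opposite directions, at -0.67 (1426864_a_at) and 0.84 (1450437_a_at), where the first rests on cisplatin Rb null signals of 8.9 to 11.8 that cannot be told from background, while the Ncam1 probe set used for counts did not (-0.29, adjusted p = 0.247). Each of these values uses the untreated wildtype arrays, which stood apart in sex-linked transcripts. For Slit2, Sema3a and Nrp1 the genotypes also differed in the comparison after cisplatin, which does not use those arrays, by log2 -2.09, -0.97 and -1.19. For Fabp7 they did not pass the test (-0.18). Culture and genotype cannot be told apart in that comparison either, since by the design text the arrays of a group share an RNA sample.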

How the results depend on the processing

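Members called moved past 1.5 times their number in these cases. Without cisplatin, 4 of 10 were called between genotypes with no filter, when Slit3 and Robo1 entered, 1 of 6 with the lowest 60% of probe sets left out, and 1 with a 2-fold minimum, in place of 2. With a 2-fold minimum, 2 in place of 4 were called between genotypes after cisplatin and 2 in place of 4 for the difference of responses. Of the other pathway genes, leaving out the lowest 60% gave 2 calls (untreated genotypes), 8 (genotypes after cisplatin), 6 (difference of responses), 13 (cisplatin in Rb null) and 13 (cisplatin in wildtype MEFs), in place of 15, 16, 18, 28 and 28; fewer genes were then tested. With no fold minimum 26 were called for each genotype comparison, and with a 2-fold minimum 8 untreated, 9 after cisplatin and 8 for the difference of responses. The Ncam1 difference of responses turned to 0.84 on the probe set with the largest value. Leaving out 1 array gave 3 to 4 members after cisplatin, 2 untreated and 4 for the difference of responses. With the hybridization label as a replicate block, members called were 2, 4 and 4, as without it; same-labelled arrays did not deviate together (correlations -0.19 to 0.11), and no label is shared by cisplatin and untreated arrays. Without the untreated wildtype group, an alternative chosen after seeing the data, 4 members were called after cisplatin and 6 for cisplatin in Rb null MEFs. Without detection calls, signals near 10.4 cannot be told from background.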
